A study of Mus musculus with 6 samples.

Results

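The genes described here encode 10 matricellular, elastic and crosslinking proteins of the extracellular matrix. They are fibronectin (Fn1), periostin (Postn), tenascin C (Tnc), SPARC (Sparc), thrombospondins 1 and 2 (Thbs1 and Thbs2), lysyl oxidase (Lox), lysyl oxidase-like 1 (Loxl1), elastin (Eln) and fibrillin 1 (Fbn1). Their probes were found by the RefSeq accession that the array files give, which yielded 15 of 55681 probes for the 10 genes. Of these genes, 9 could be tested among 20900 genes in all. Tnc could not, since neither of its probes was well above background on any of the 6 arrays. Each of 6 mice had its gastrocnemius, the large calf muscle, measured on an Agilent array of its own, labelled in 1 colour. There were 3 young mice of 13 weeks and 3 aged mice of 26 months. All 6 were male, and the methods name the C57BL/6J strain. The labels name no transgene or treatment, and age is the difference they give between the groups.

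The matrix of skeletal muscle ensheathes the fibres and the bundles they form, and it passes force to the tendon. Matricellular proteins are secreted into it and act mainly by binding cells, growth factors and collagen rather than as scaffold, and many of them are known for high expression in developing or injured tissue. Elastin is laid down on microfibrils of fibrillin to form elastic fibres, and lysyl oxidases crosslink both elastin and the fibrillar collagens. In muscle these genes are expressed mostly by fibroblasts and other cells between the fibres. The array measures RNA of the whole muscle, so fewer cells of a type and less RNA per cell cannot be told apart.

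None of the 9 genes tested changed with age at an adjusted p under 0.05 (limma, Benjamini-Hochberg over all genes), where 0.249% of all genes did. Fn1, Postn and Sparc were lower in each of the 3 aged mice than in each of the 3 young mice. This was 3 of 9 genes, where 14.9% of all genes had every aged mouse below every young mouse. The same 3 genes had an unadjusted p under 0.05, against 14.7% of all genes, and 0.777-fold, 0.664-fold and 0.717-fold the young level respectively. No member had every aged mouse above every young mouse, which 7.38% of all genes had. Thbs1, Thbs2, Lox, Loxl1, Eln and Fbn1 had groups that overlapped. The median difference of the 9 genes was -0.13 on the log2 scale, beside -0.08 for all genes tested.

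Levels are given as log2 of the processed signal of a spot minus the log2 of the 75th percentile of its array, so that 0 is that percentile. The 75th percentile ranged from 243 to 368 over the arrays, and the share of probes well above background from 48.7% to 53.8%. All 6 arrays were on 1 slide, with those of the young mice and of aged mouse 1 in row 1 and those of aged mice 2 and 3 in row 2. Negative controls averaged a net signal of 61.3 on the array of aged mouse 1 and 51.9 to 55.1 on the others. Aged mouse 1 was also the lowest of the 6 mice for Col1a1, Col1a2, Col3a1, Col5a1 and Col5a3, though not for the other fibrillar collagens tested. The number of arrays limits the precision. The p-values of limma set a difference against the spread between these 6 mice, moderated by the spread of all genes. With 3 mice in each group, the smallest p of an exact permutation test (two-sided) is 0.1, which Fn1, Postn and Sparc reached. Levels of different genes come from different probes and are not set against each other.

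**Figure D1:**
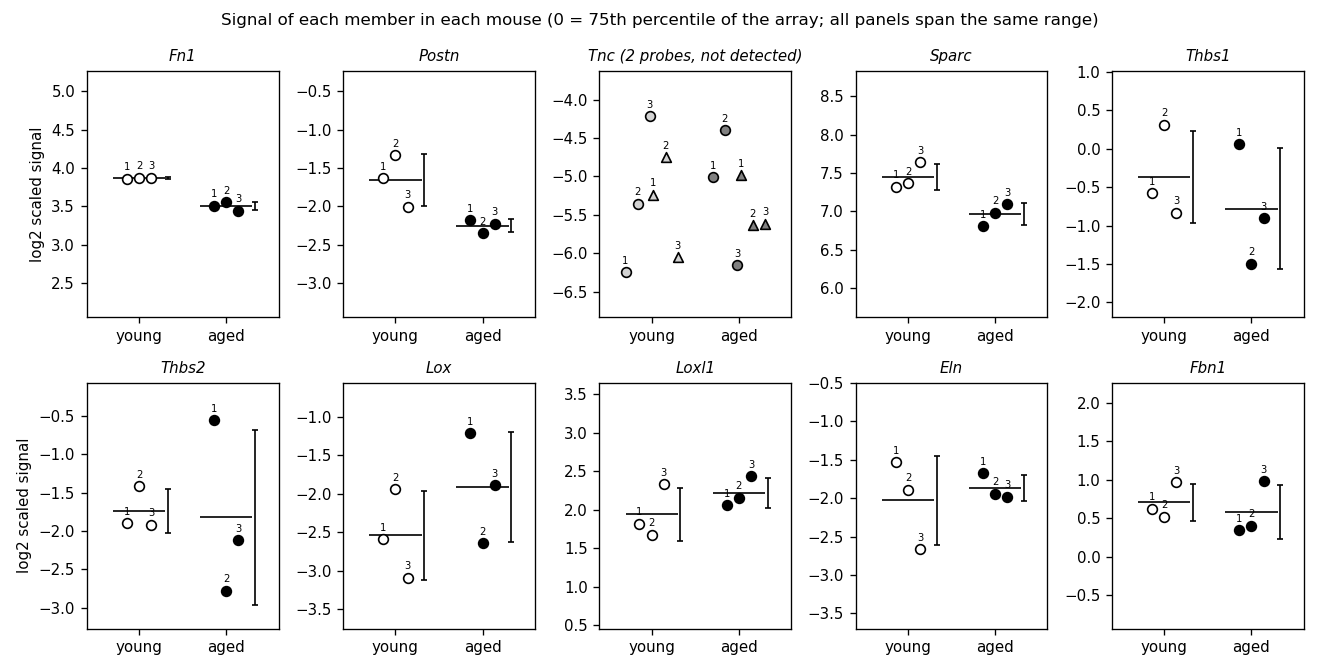
Level of each of the 10 genes in each mouse, 1 panel per gene. The vertical axis is log2 of the processed signal minus that of the 75th percentile of the array, points are single mice with their numbers, horizontal lines are group means (n = 3), bars beside them are the SD, and circles and triangles for Tnc are its 2 probes, which were not well above background on any array. In Fn1, Postn and Sparc the aged mice lie below all young mice, and in the other 6 genes the groups overlap.

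Fibronectin is a large glycoprotein that binds integrins, collagen and fibrin, and cells assemble it into fibrils early in matrix formation. The Fn1 probe (A_55_P2130178, NM_010233) read 3.86, 3.87 and 3.87 in young mice 1 to 3. It read 3.51, 3.56 and 3.45 in aged mice 1 to 3. The 3 young mice were nearly identical, and the 3 aged mice lay below them within a narrow range. The mean ± SD (n = 3) was 3.87 ± 0.0072 for young mice and 3.50 ± 0.056 for aged ones. The difference of -0.36 (SE 0.14, 95% confidence interval -0.70 to -0.03) had an adjusted p of 0.313 in limma. The SE of limma draws on the spread of all genes and is larger than the spread of these 6 values alone.

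SPARC (secreted protein acidic and rich in cysteine, or osteonectin) binds collagen and calcium and takes part in the assembly of collagen fibrils. The brightest Sparc probe (A_55_P2046812, NM_009242) read 7.32, 7.37 and 7.64 in young mice 1 to 3. It read 6.81, 6.98 and 7.10 in aged mice 1 to 3. All aged mice were below all young mice, with aged mouse 1 the lowest. The difference was -0.48 (SE 0.17, 95% confidence interval -0.89 to -0.07), or 0.717-fold, with an adjusted p of 0.285 (limma).

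The other Sparc probes, named by the same accession, did not separate the groups. The second one (A_55_P2046807) read -1.73, -0.80 and -0.11 in young and -1.69, 0.18 and -0.01 in aged mice, a difference of 0.37 (SE 0.60, 95% confidence interval -1.04 to 1.79). On this probe, mouse 1 of either group was the lowest of its group, and the young mice spread over most of the range of the aged ones. The third one (A_55_P2122835) differed by -0.08 (95% confidence interval -0.49 to 0.33). With the mean of the 3 probes as the value of the gene, the difference of Sparc was -0.06 and its groups overlapped, so the lower level in aged mice rests on the brightest probe.

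Periostin binds fibronectin, tenascin C and collagen and is secreted by fibroblasts of tissues under load or repair. The Postn probe (A_55_P1954086, NM_001198766) read -1.63, -1.33 and -2.00 in young mice 1 to 3. It read -2.18, -2.35 and -2.22 in aged mice 1 to 3. The aged mice lay close together, just under young mouse 3, and the young mice were spread more widely. The difference was -0.59 (SE 0.21, 95% confidence interval -1.08 to -0.10), or 0.664-fold, with an adjusted p of 0.280 (limma). With normexp background correction it was -0.25 (unadjusted p = 0.084, limma).

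Promoter sequences of RefSeq (GRCm38.p6) are shown for Sparc and Postn. Both genes read lower in every aged mouse than in every young mouse, for Sparc on its brightest probe only. Neither gene passed the adjusted threshold, and the search gave no promoter of Fn1. Each sequence covers 250 bases before to 50 bases after a start of transcription and is written 5′ to 3′ on the strand of the gene. The Sparc promoter is at chr11:55420031-55420330 on the minus strand, and the Postn promoter at chr3:54360857-54361156 on the plus strand is the second of the 2 start sites in the table. Capitals mark matches to TATAAA (the TATA box), CCAAT (the CCAAT box), CAGAC (the SMAD-binding element) and TGANTCA (the AP-1 site), searched on both strands.
Sparc: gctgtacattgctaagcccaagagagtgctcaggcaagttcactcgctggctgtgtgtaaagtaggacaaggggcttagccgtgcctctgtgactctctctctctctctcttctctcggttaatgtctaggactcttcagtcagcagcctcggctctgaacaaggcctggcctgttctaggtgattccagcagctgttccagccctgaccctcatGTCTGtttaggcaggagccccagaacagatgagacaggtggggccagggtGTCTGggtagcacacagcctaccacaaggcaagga
Postn: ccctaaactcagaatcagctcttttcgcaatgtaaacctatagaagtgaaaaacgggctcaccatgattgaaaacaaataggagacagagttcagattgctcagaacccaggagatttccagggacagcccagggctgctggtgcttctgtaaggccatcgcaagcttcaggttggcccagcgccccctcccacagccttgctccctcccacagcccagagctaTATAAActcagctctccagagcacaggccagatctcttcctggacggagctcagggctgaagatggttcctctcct

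The Sparc window held 2 matches to CAGAC, both read on the other strand, and none to the other motifs. This Postn window held 1 match to TATAAA and none to the others. The window of the other Postn start site, which is not shown, held 1 match to CCAAT, 1 to CAGAC and none to TATAAA or TGANTCA. Of all 32851 promoters in the table, 13.6% held TATAAA, 37.4% CCAAT, 49.6% CAGAC and 7.81% TGANTCA, so CAGAC in particular is a common match in windows of 300 bases. The search for the members gave 7 promoters for 5 of the 10 genes. Beside those shown, they were 1 more of Postn, 2 of Tnc and 1 each of Thbs2 and Fbn1. This search left out 1 chromosome of the table, so a promoter of another member may be missed. None of the 7 held TGANTCA. A match describes the letters of a window and not a site in use.

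Thrombospondins 1 and 2 are trimeric glycoproteins that bind CD47, CD36 and integrins, and thrombospondin 1 can activate latent TGF-beta. The Thbs1 probe (A_55_P2017636) read -0.58, 0.31 and -0.83 in young mice and 0.06, -1.50 and -0.90 in aged mice 1 to 3. Young mouse 2 was the highest and aged mouse 2 the lowest, and the groups overlapped. The difference was -0.41 with a 95% confidence interval of -1.50 to 0.68 (adjusted p = 0.697, limma), and it ranged from -0.83 without aged mouse 1 to -0.05 without aged mouse 2.

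The Thbs2 probe (A_51_P461877) read -1.90, -1.42 and -1.92 in young mice and -0.56, -2.78 and -2.12 in aged mice 1 to 3. Aged mouse 1 was the highest of all mice and aged mouse 2 the lowest, so the aged group enclosed the young one. The difference was -0.08 with a 95% confidence interval of -1.35 to 1.20 (adjusted p = 0.956, limma). Without aged mouse 1 it was -0.70 (adjusted p = 0.264, limma), and without aged mouse 2 it was 0.40, so its direction is not settled by these arrays.

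Tenascin C is a large hexameric glycoprotein, expressed in tendon, at the myotendinous junction and in regenerating muscle. Its probes (A_52_P355169 and A_55_P2421597, both NM_011607) had processed signals of 4.51 to 16.1 and of 3.69 to 11.7 over the 6 mice. The lowest signal of any probe called well above background was 14.3 to 21.3, depending on the array. No fold is given for Tnc, because neither probe was well above background on any array.

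Elastin is the rubber-like core of elastic fibres, which in muscle lie mostly in arteries and in the connective tissue sheaths. The Eln probe (A_52_P609972) read -1.53, -1.89 and -2.66 in young mice and -1.67, -1.94 and -1.98 in aged mice 1 to 3. All 3 aged values lay within the range of the young ones. The difference was 0.16 (SE 0.30, 95% confidence interval -0.55 to 0.87, adjusted p = 0.820 in limma), and it was -0.15 without young mouse 3, whose value was the lowest.

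Fibrillin 1 forms the microfibrils on which elastin is deposited, and it holds latent TGF-beta complexes in the matrix. The Fbn1 probe (A_51_P467224) read 0.62, 0.52 and 0.97 in young mice and 0.35, 0.41 and 0.99 in aged mice 1 to 3. Aged mice 1 and 2 lay below the young mice, and aged mouse 3 above them by a small margin. The difference was -0.13 (SE 0.23, 95% confidence interval -0.68 to 0.43, adjusted p = 0.819 in limma).

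Lysyl oxidase oxidises lysines of collagen and elastin, the step that starts their crosslinking. The brighter Lox probe (A_66_P138929, NM_010728) read -2.59, -1.94 and -3.09 in young mice and -1.21, -2.64 and -1.89 in aged mice 1 to 3. Aged mouse 1 was the highest, and aged mouse 2 lay among the young mice. The difference of 0.62 (95% confidence interval -0.39 to 1.64), or 1.54-fold, was the largest increase among the 9 genes and did not pass the test (adjusted p = 0.526, limma). It was 0.27 without aged mouse 1, 0.92 without young mouse 2 and 0.99 without aged mouse 2. The second Lox probe (A_55_P2032678) differed by 0.30 (95% confidence interval -0.95 to 1.56), and aged mouse 2 was the lowest mouse on it.

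Loxl1 is known for the crosslinking of elastin in particular. The brighter Loxl1 probe (A_51_P304239, NM_010729) read 1.82, 1.67 and 2.33 in young mice and 2.06, 2.16 and 2.43 in aged mice 1 to 3. Young mouse 3 lay within the aged range, and the other young mice lay below it. The difference was 0.27 (SE 0.22, 95% confidence interval -0.26 to 0.81, adjusted p = 0.592 in limma), or 1.21-fold, and the second probe (A_55_P2096226) differed by 0.06 (95% confidence interval -0.50 to 0.62).

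**Figure D2:**
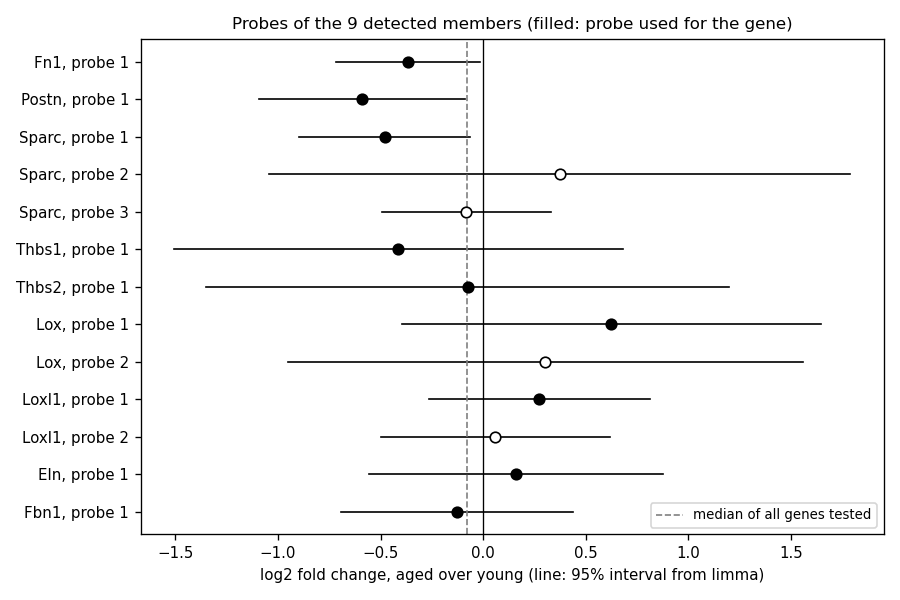
Difference between aged and young mice for each of the 13 member probes that could be tested, on the log2 scale with 95% confidence intervals (limma, 3 mice per group). Filled points are the probes used for the gene, and the dashed line is the median of all genes. The intervals of Fn1, Postn and the brightest Sparc probe lie below 0, and the other 2 Sparc probes and all probes of the other genes have intervals that include 0.

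The aged mice differed among themselves. The median of the 9 genes, each taken as the difference from its young mean, was 0.12, -0.31 and -0.35 for aged mice 1 to 3. For young mice 1 to 3 it was -0.08, 0.14 and -0.17. Aged mouse 1 was above the young mean by 1.18 for Thbs2, by 1.33 for Lox and by 0.43 for Thbs1, where aged mouse 2 differed from it by -1.03, -0.10 and -1.13. For Fn1, Postn and Sparc the 3 aged mice were alike, at -0.31 to -0.42, -0.52 to -0.69 and -0.35 to -0.63.

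**Figure D3:**
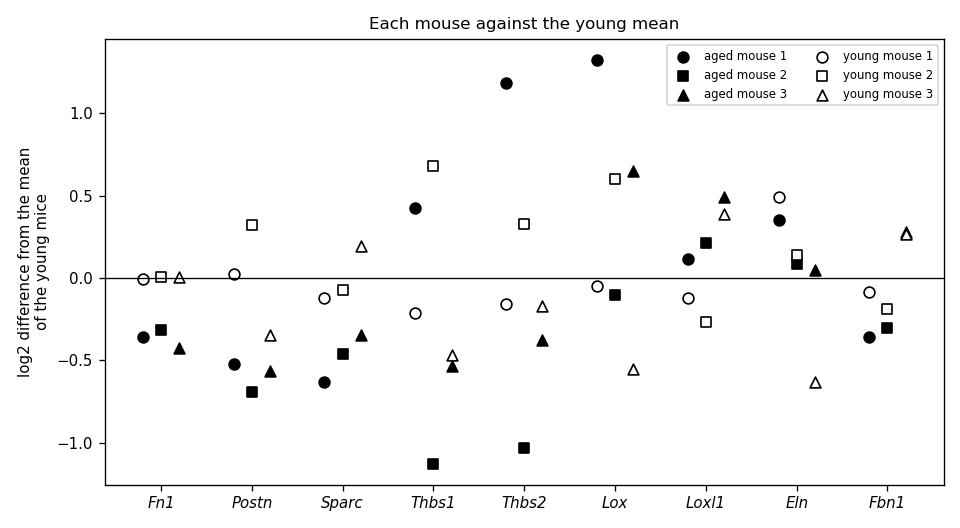
Difference of each aged mouse, and of each young mouse, from the mean of the young mice for each gene tested, on the log2 scale. Aged mouse 1 lies at 1.18 for Thbs2 and 1.33 for Lox, apart from aged mouse 2 at -1.03 and -0.10, while the 3 aged mice lie together below 0 for Fn1, Postn and Sparc.

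Genes related to the members were taken from 5 lists. Other matricellular genes, 17 of 21 tested, had none past the adjusted threshold. At an unadjusted p under 0.05, which 14.7% of all genes had, 1 was higher and 8 were lower in aged mice, and the median difference was -0.48. Connective tissue growth factor (Ccn2), induced by TGF-beta and by load, read 3.97, 4.11 and 3.34 in young mice and 3.25, 1.54 and 1.01 in aged mice. Its aged mice were all below the young ones, with aged mouse 1 close to them (difference -1.87, adjusted p = 0.229 in limma). Without aged mouse 1 the difference of Ccn2 was -2.53 (adjusted p = 0.0317, limma). In that fit 193 of all genes passed the threshold, against 52 with all mice, and the mouse was left out after its value was seen. Cartilage oligomeric matrix protein (Comp, a thrombospondin of tendon and cartilage) differed by -1.44 and the SPARC homologue Sparcl1 by -0.95. The thrombospondins Thbs3 and Thbs4, given here for their kinship with Thbs1 and Thbs2 after their values were seen, differed by -0.48 and -0.90. Spock2, a proteoglycan with a SPARC-like domain, was higher in every aged mouse, by 1.63 (adjusted p = 0.151, limma).

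Among the other elastic fibre genes, 14 of 15 were tested, none passed the adjusted threshold, and 3 were lower and 0 higher at an unadjusted p under 0.05 (14.7% of all genes in either direction). These were Mfap4, a microfibril-associated protein, at -1.13, and the latent TGF-beta binding proteins Ltbp4 at -0.91 and Ltbp1 at -0.50. Ltbp4 read 5.06, 5.32 and 5.41 in young mice and 4.61, 4.41 and 4.05 in aged mice, so the groups were apart (adjusted p = 0.151, limma). The median of the 14 genes was -0.33, where Eln and Fbn1 were at 0.16 and -0.13.

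The other crosslinking and collagen-modifying genes had a median of -0.07 over 21 of 22 genes. None passed the adjusted threshold, and 1 was higher and 4 were lower at an unadjusted p under 0.05, against 14.7% of all genes in either direction. Lysyl oxidase-like 2 (Loxl2), which crosslinks type IV collagen of basement membranes, read 1.20, 1.65 and 2.31 in young mice and 0.28, 0.51 and 0.90 in aged mice. Its difference was -1.16 (adjusted p = 0.198, limma), where Lox and Loxl1 were at 0.62 and 0.27 and Loxl3 and Loxl4, also looked at after their values were seen, at 0.02 and 0.08. Whether Loxl2 differs from Lox in its response was not tested. Pcolce2, an enhancer of procollagen processing, differed by -0.78 and the prolyl 3-hydroxylase P3h3 by -0.69. P4hb, the beta subunit of prolyl 4-hydroxylase and a protein disulfide isomerase, was higher in every aged mouse, by 0.60.

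The collagens that lysyl oxidases crosslink had 8 of 9 genes tested and a median of -0.54, which was -0.025 without aged mouse 1, -0.30 without young mouse 3, -0.83 without young mouse 2 and -0.92 without aged mouse 3. Only Col11a1, a minor chain of fibrils, passed the adjusted threshold, at a lower level in aged mice (adjusted p = 0.0349, limma). Leaving out any mouse but aged mouse 1 ended this call (adjusted p 0.105 to 0.138, limma), and so did normexp background correction, a mean-variance trend, no filter on dim probes and a block for the slide row or the replicate number. It was well above background in the 3 young mice and not in any aged mouse. The mean of these young mice was thus at least 1.48-fold that of the aged mice. This bound sets the mean of the young mice against the mean, over the aged arrays, of the lowest signal well above background or the signal of the probe, whichever was higher. The bound describes the measured means and does not take in the spread between mice. Col1a2 read 5.96, 6.08 and 6.20 in young mice and 3.73, 4.63 and 5.21 in aged mice, a difference of -1.56 (adjusted p = 0.158, limma). Col1a1 differed by -1.58 (adjusted p = 0.282, limma), and in both genes aged mouse 1 was the lowest. Against the young mean, the median of the 8 collagens was -1.44, -0.28 and 0.05 for aged mice 1 to 3. The order of the aged mice was thus not that of Thbs2 and Lox, for which aged mouse 1 was the highest.

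Of the cell surface receptors of the members, 14 of 15 were tested and none passed the adjusted threshold, with 1 higher and 3 lower at an unadjusted p under 0.05 (14.7% of all genes in either direction). The median was -0.13, and 0.01 without aged mouse 1. Integrin alpha 8 (Itga8), which binds fibronectin and tenascin C, read -1.35, -1.16 and -0.69 in young mice and -1.88, -2.13 and -2.32 in aged mice. Its groups did not overlap, with a difference of -1.04 (adjusted p = 0.149, limma). Integrin beta 5 (Itgb5) differed by -0.57 and Cacna2d1, a calcium channel subunit of muscle that binds thrombospondins, by -0.54. Integrin alpha 9 (Itga9), a receptor for tenascin C, was higher in every aged mouse, by 0.75 (adjusted p = 0.178, limma). The main fibronectin receptor chains Itga5 and Itgb1 differed by 0.46 and 0.32, with groups that overlapped, and were also chosen after their values were seen.

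**Figure D4:**
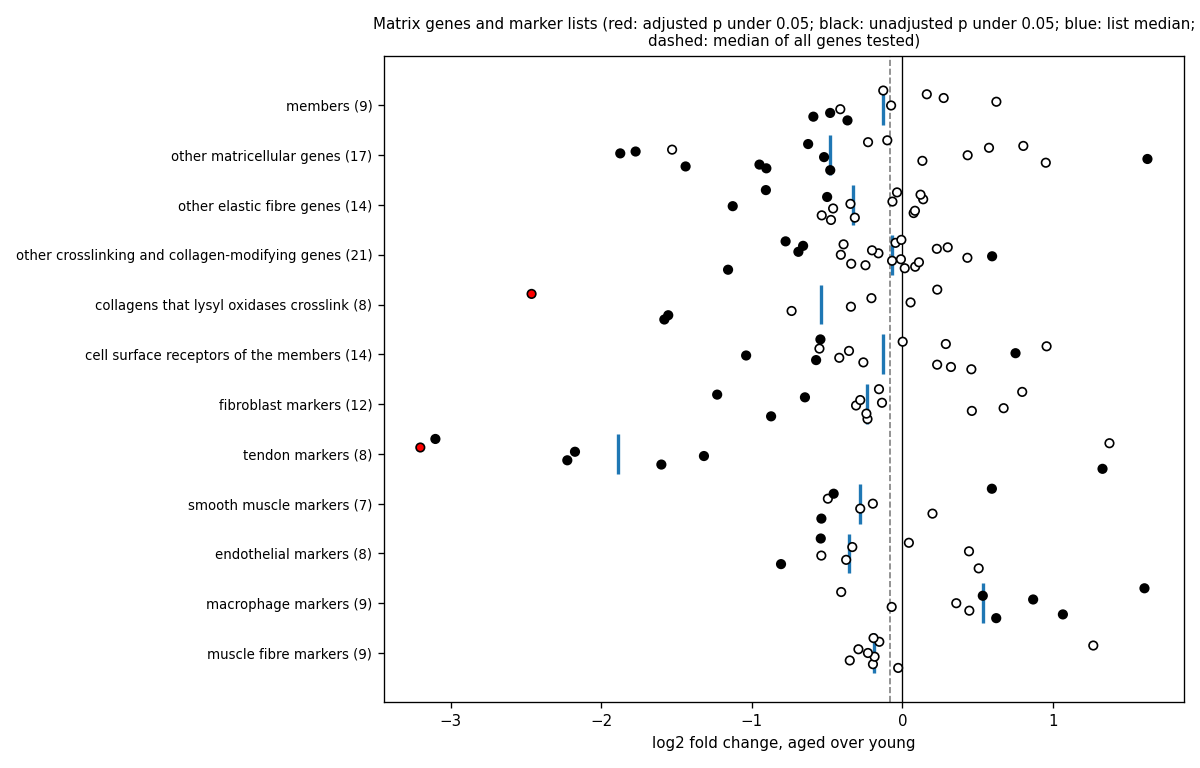
Difference between aged and young mice of each gene tested, by list, on the log2 scale (points are genes, red for an adjusted and black for an unadjusted p under 0.05, vertical blue lines are list medians, and the dashed line is the median of all genes at -0.08). The members spread from -0.59 to 0.62 around a median of -0.13, and the medians of the other matricellular genes and of the crosslinked collagens are -0.48 and -0.54, the latter -0.025 without aged mouse 1.

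Markers of the cells that a muscle holds are given beside these values as summed levels, in units of the 75th percentile of the array. Muscle fibre markers had 9 of 10 genes tested and summed to 5277 to 6515 in young and 4263 to 5734 in aged mice. None differed at an unadjusted p under 0.05, against 14.7% of all genes, and their brightest gene, parvalbumin (Pvalb), differed by -0.19. Fibroblast markers were all tested (12 of 12) and summed to 432 to 480 in young and 237 to 366 in aged mice, with no overlap between the groups. The sums of endothelial and of macrophage markers, given below, did not overlap either, and that of macrophages was higher in aged mice. The fibroblast sum adds the signals of different probes and is carried mainly by those of Dcn and Gsn. Of the fibroblast markers, 3 were lower at an unadjusted p under 0.05 (Pdgfrl by -1.23, Dcn by -0.87 and Gsn by -0.65). This compares with 14.7% of all genes in either direction, and none of the markers passed the adjusted threshold. For 4 of the 12 all aged mice lay below all young mice (14.9% of all genes), and the groups of the other 8 overlapped. Ly6a, Cd34 and Dpt, named after their values were seen, were at 0.46, 0.67 and 0.80. The median of the fibroblast markers was -0.24, and it was 0.03 without young mouse 3 and -0.06 without aged mouse 1, so its sign rests on single mice.

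Tendon markers, with 8 of 8 tested, had a median of -1.89. At an unadjusted p under 0.05, which 14.7% of all genes had in either direction, 6 were lower and 1 was higher. Keratocan (Kera) passed the adjusted threshold with a difference of -3.20 (adjusted p = 0.0273, limma). Leaving out any mouse but aged mouse 1 ended this call (adjusted p 0.0535 to 0.113, limma), and so did no filter on dim probes and a block for the slide row or the replicate number. Chad and Fmod differed by -2.17 and -1.32. The sum of all 8 tendon markers was 22.9 to 32.3 in young and 24.5 to 58.5 in aged mice. It did not follow their median of -1.89, and the tendon transcription factor Scx was higher in every aged mouse, by 1.33. Cilp2, named after its values were seen, had a mean in the young mice at least 5.07-fold that of the aged mice, by the bound used for Col11a1. It did not pass the adjusted threshold (adjusted p = 0.137, limma). Endothelial markers (8 of 8 tested) summed to 31.4 to 35.7 in young and 21.2 to 29.3 in aged mice, with no overlap between the groups. At an unadjusted p under 0.05, which 14.7% of all genes had in either direction, 0 were higher and 2 were lower (Cdh5 at -0.81 and Esam at -0.54). The other 6 had groups that overlapped, and of these Pecam1, Tek and Emcn, named after their values were seen, were at 0.51, 0.44 and 0.04.

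Smooth muscle markers (7 of 8 tested) summed to 59.6 to 102 in young and 55.4 to 64.3 in aged mice, with Myh11 at -0.54, Mylk at -0.46 and Actg2 at 0.59. Macrophage markers (9 of 10 tested) summed to 20.0 to 22.1 in young and 23.4 to 28.5 in aged mice. For 7 of them every aged mouse was above every young mouse, against 7.38% of all genes, among them Cd68 at 1.07, C1qb at 0.87 and Adgre1 at 0.62. Csf1r and Mertk, named after their values were seen, were at -0.07 and -0.41, with groups that overlapped. None of the macrophage markers passed the adjusted threshold. Fcgr1, also named after its values were seen, had a mean in the aged mice at least 2.12-fold that of the young mice, by a bound of the same kind (adjusted p = 0.0652, limma). The markers without a probe well above background on 3 arrays were Tnni2 of muscle fibres, Lmod1 of smooth muscle and Cd163 of macrophages. The part that the amount of any of these cells had in the levels of Fn1, Postn and Sparc was not tested.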

How the data were processed

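Total RNA of gastrocnemius was labelled with Cy3 and hybridized to 6 single-colour arrays. The authors deposited Agilent Feature Extraction output (version 9.5 per the labels, 11.0.1.1 per the file headers), whose processed signal gives spot intensity on a linear scale, with background and spatial trends removed by that software and no scaling between arrays. The series matrix held the same values (largest difference 0 on the log2 scale). The methods name no normalization or test for the arrays. Spots flagged as outliers were left out (161 to 212 per array), spots of a probe were averaged on the log2 scale, and the 75th percentile of the 59305 non-control spots was subtracted. Accessions were matched without version to RefSeq GRCm38.p6, which named 28331 of 55681 probes. The array design used another build, so probe coordinates are left out. A probe was kept if well above background on at least 3 of 6 arrays, and a gene was its kept probe with the highest mean. Groups come from the sample titles. The 2 ages were compared by lmFit and eBayes of limma 3.58.1 (R 4.3.3) without covariates, with Benjamini-Hochberg adjustment over 20900 genes and a threshold of 0.05. Single probes were adjusted over the 28002 probes kept. The limma step was tested on simulated data, and the other steps were not.

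The members and lists were chosen with earlier results of these data known, and no list was tested as a set. Beside the members, the genes named are, from each list, those past the adjusted threshold and up to 3 increases and 3 decreases at an unadjusted p under 0.05 whose groups do not overlap and whose probe is well above background on each of the 6 arrays, or else the brightest gene. Genes outside this rule are marked as named after their values were seen. The alternatives were normexp (offset 50, on the median spot signal), quantile normalization, scaling to the median or to the 75th percentile of probes well above background, other filters, the mean of a gene's probes, a mean-variance trend, the series matrix, the row on the slide and the replicate number as blocks, and leaving out each mouse. After the data were seen, the overlap of the groups under other scalings and the fit over single probes were added. The replicate numbers did not pair the mice (correlations of the deviations -0.06, -0.27 and 0.03).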

Additional observations from a re-analysis of the deposited data

How the results depend on the processing

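No member passed the threshold under any of the 17 alternatives. Fn1, Postn, Sparc, Lox and Loxl1 kept their direction under all of them, though not all of these settings could change it. The series matrix held the same values as the main fit. The mean-variance trend, the replicate block and the other filters left the differences of these genes unchanged. Under normexp, quantile normalization, scaling to the median and the 75th percentile of detected probes the aged mice stayed below the young ones for Fn1, Postn and Sparc. With the mean of all probes this held for Fn1 and Postn. Over the 17 alternatives the difference ranged from -0.63 to -0.30 for Fn1, from -0.77 to -0.25 for Postn and from -0.64 to -0.06 for Sparc. The number of members at an unadjusted p under 0.05 was 1 with quantile normalization, 0 with the replicate block and 0 to 2 when a mouse was left out. Over all genes, 8 passed the threshold with no filter, 32 where a probe had to be well above background on each of the 6 arrays and 5 with the replicate block, and the count ranged from 1 (without aged mouse 3) to 193 (without aged mouse 1). A block for the slide row compares aged mouse 1 alone with the young mice, and with it the member median was 0.12, Thbs1 was at 0.43 and Thbs2 at 1.18. When a mouse was left out, the member median ranged from -0.37 (without aged mouse 1) to -0.0405 (without aged mouse 2), Thbs1 from -0.83 to -0.05, Thbs2 from -0.70 to 0.40, Lox from 0.27 to 0.99, Loxl1 from 0.14 to 0.47, Eln from -0.15 to 0.41 and Fbn1 from -0.33 to 0.0063. The calls of Kera and Col11a1 were lost with no filter, with either block and in 5 of 6 fits without a mouse, and that of Col11a1 also with normexp (-0.47) and with a mean-variance trend. Scaling to the median moved the median of all genes from -0.08 to -0.21. The cause of these shifts was not tested. The dim probes of Tnc limit any statement on that gene.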
